A study of Mus musculus with 12 samples.

Results

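The proteasome gene family was followed in the gastrocnemius, the large calf muscle, of mice with and without a tumour. Its members are the protein-coding genes whose symbol begins with Psm, 1 letter from a to g and a number. This rule found 50 of the 54532 genes listed, and 48 of them passed the filter on low values (a mean of at least 0.5 FPKM, fragments per kilobase of gene length, scaled by library size). Psmc3ip fits the rule only by the start of its name and encodes no proteasome part, so it stands in a class of its own. A further 4 pseudogenes with matching names were left out by their biotype.

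All mice were female ICR SCID mice, an immunodeficient stock. The group called NTV was tumour-free and given vehicle. In TV, vehicle was given to mice with a tumour under the skin formed by HT1080, an established line of human fibrosarcoma cells. In TL, tumours of that line were combined with selpercatinib, a drug that blocks the RET kinase, at 30 mg/kg daily by gavage for 19 days. Each group had 4 libraries, described as biological replicates. The study's title places the experiment in cancer cachexia, the wasting of muscle and fat that some tumours bring.

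The proteasome is the protease that degrades proteins tagged with ubiquitin. Its core particle is a barrel of alpha and beta rings with the cutting sites inside, and its regulatory cap recognises ubiquitin, unfolds the substrate with a ring of ATPases and feeds it into the core. In cells exposed to interferon, 3 of the cutting subunits can be replaced by immunoproteasome forms, and other activators can take the place of the cap. In wasting muscle, raised proteasome gene expression is a known part of the atrophy programme that breaks down the contractile proteins.

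Promoter sequence is shown for 4 members, to set the stretches before raised genes beside that of a gene that was not called. Psmd8 and Psmd4 had the largest rises in TV, Psmb3 was the raised member of the constitutive beta ring, and Psmb6 is a cutting subunit that was not called. The sequences are those of RefSeq for GRCm38.p6, on the strand of the gene, 5′ to 3′, and each ends before the first annotated exon. They are chr7:29180702-29180873 (minus strand), chr3:95042615-95042814 (minus strand), chr11:97703234-97703398 (plus strand) and chr11:70525157-70525356 (plus strand). Capitals mark matches to any of 5 motifs searched on both strands.
Psmd8: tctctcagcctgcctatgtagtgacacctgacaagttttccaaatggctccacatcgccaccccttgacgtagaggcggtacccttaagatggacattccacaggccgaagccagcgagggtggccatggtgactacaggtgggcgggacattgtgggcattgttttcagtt
Psmd4: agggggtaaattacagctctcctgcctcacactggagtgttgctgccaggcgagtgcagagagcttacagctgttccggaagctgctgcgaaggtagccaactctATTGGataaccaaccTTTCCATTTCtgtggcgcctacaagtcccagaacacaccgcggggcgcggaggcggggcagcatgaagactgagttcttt
Psmb3: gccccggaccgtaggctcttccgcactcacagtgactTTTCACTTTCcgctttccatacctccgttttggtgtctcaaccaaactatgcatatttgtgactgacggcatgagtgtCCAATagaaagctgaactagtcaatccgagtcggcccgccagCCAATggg
Psmb6: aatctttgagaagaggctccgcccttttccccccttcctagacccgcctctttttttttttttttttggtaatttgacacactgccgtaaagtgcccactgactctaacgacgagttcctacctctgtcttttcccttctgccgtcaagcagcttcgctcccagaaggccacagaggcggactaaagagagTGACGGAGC
The capitals in Psmd4 are a CCAAT motif read on the other strand, at position -95 from the start, and the interferon response motif (GAAA, any 2 bases, GAAA) at -80, also on the other strand. Those in Psmb3 are the interferon response motif at -163, on the other strand, and CCAAT at -85 and -43. Psmb6 held TGACNNNGC at -9. No match in these stretches overlapped another, and the whole Psmd8 window held no match to any of the 5 motifs.

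A promoter window of 250 bases before to 50 after the start was found for 42 of the 50 members. TGACNNNGC, the core of the antioxidant response element that Nfe2l1 and Nfe2l2 proteins recognise, was present in 6 of the 42 windows (14.3%) and in 13.0% of all 20484 promoters. Those 6 were Psmb5, Psmb6, Psmc6, Psmd9, Psmd12 and Psme4, none of which passed the test in TV against NTV. CCAAT, the letters bound by the factor NF-Y, was in 15 of 42 (35.7%, against 38.2% of all promoters). It was in 6 of the 10 raised members with a window, 3 of the 5 lowered ones and 5 of the 26 tested and not called. These subsets are small. The interferon response motif was in 5 of 42 (11.9%, against 3.37%), namely Psmb3, Psmd4, Psmd9, Psme1 and Psmg4. TTCNNNGAA, a STAT motif, was in 3 of 42 (7.14%, against 8.03%), and GTAAACA, a FoxO motif, was in 0 of 42 (against 3.14%). Among the 8949 promoters of tested genes, 15.1% held TGACNNNGC, 38.6% CCAAT, 2.86% the interferon response motif, 6.57% TTCNNNGAA and 2.39% GTAAACA. These are matches of letters in a short window and are given as a description.

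Between 14939830 and 23580603 reads fell on genes in a library. The 7 skeletal muscle markers summed to between 36000 and 70762 FPKM, far above every other marker list, as the tissue label has it. Markers of fibroblasts summed to 82.7 to 135 FPKM in NTV, 40.4 to 64.6 in TV and 29.5 to 65.4 in TL, and those of endothelium to 70.6 to 89.5, 54.1 to 69.95 and 42.3 to 58.5. The markers within a list did not move alike. In TV against NTV, Col1a1, Col3a1 and Lum were called lower, and Dcn and Pdgfra were not called. Mean Col1a1 was 25.8 FPKM in NTV and 2.16 in TV, and mean Dcn was 49.7 and 43.3. Of the endothelial markers, Cdh5 and Kdr were called lower, and Pecam1, Tie1 and Egfl7 were not called. Leukocyte markers overlapped between all groups, at 22.4 to 53.2, 18.3 to 43.7 and 18.1 to 35.9 FPKM. The TL libraries were unlike each other: adipocyte markers summed to 327 and 316 FPKM in replicates 1 and 5 against 80.1 and 51.5 in replicates 4 and 7, and mitochondrial reads made up 10.1% and 13.9% against 6.04% and 6.55%. That share was 11.6% to 13.5% in NTV and 5.08% to 7.70% in TV, and its part in the differences between groups was not tested. Ucp1, the uncoupling protein of brown fat, was above 2 FPKM in TL replicates 1 and 5 and in NTV replicate 5. In whole muscle, fewer cells of a type and less RNA per cell cannot be told apart.

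Levels per gene length differed widely among the members, and the ranges of the classes overlapped. Group means of the core and cap subunits lay between 17.96 FPKM (Psmd11 in NTV) and 111 FPKM (Psmd2 in TV). Those of the immunoproteasome subunits ran from 0.417 FPKM (Psmb9 in TV) to 8.28 FPKM (Psmb10 in NTV), and the base assembly chaperones lay between 1.85 and 6.26 FPKM. The 2 members below the filter were Psma8, the testis form of an alpha subunit, with 3 reads over all 12 libraries, and Psmb11, the thymus form of a beta subunit, with 1 read. A library with 0 reads of a gene allows up to 3, so these 2 genes were at the limit of detection.

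**Figure D1:**
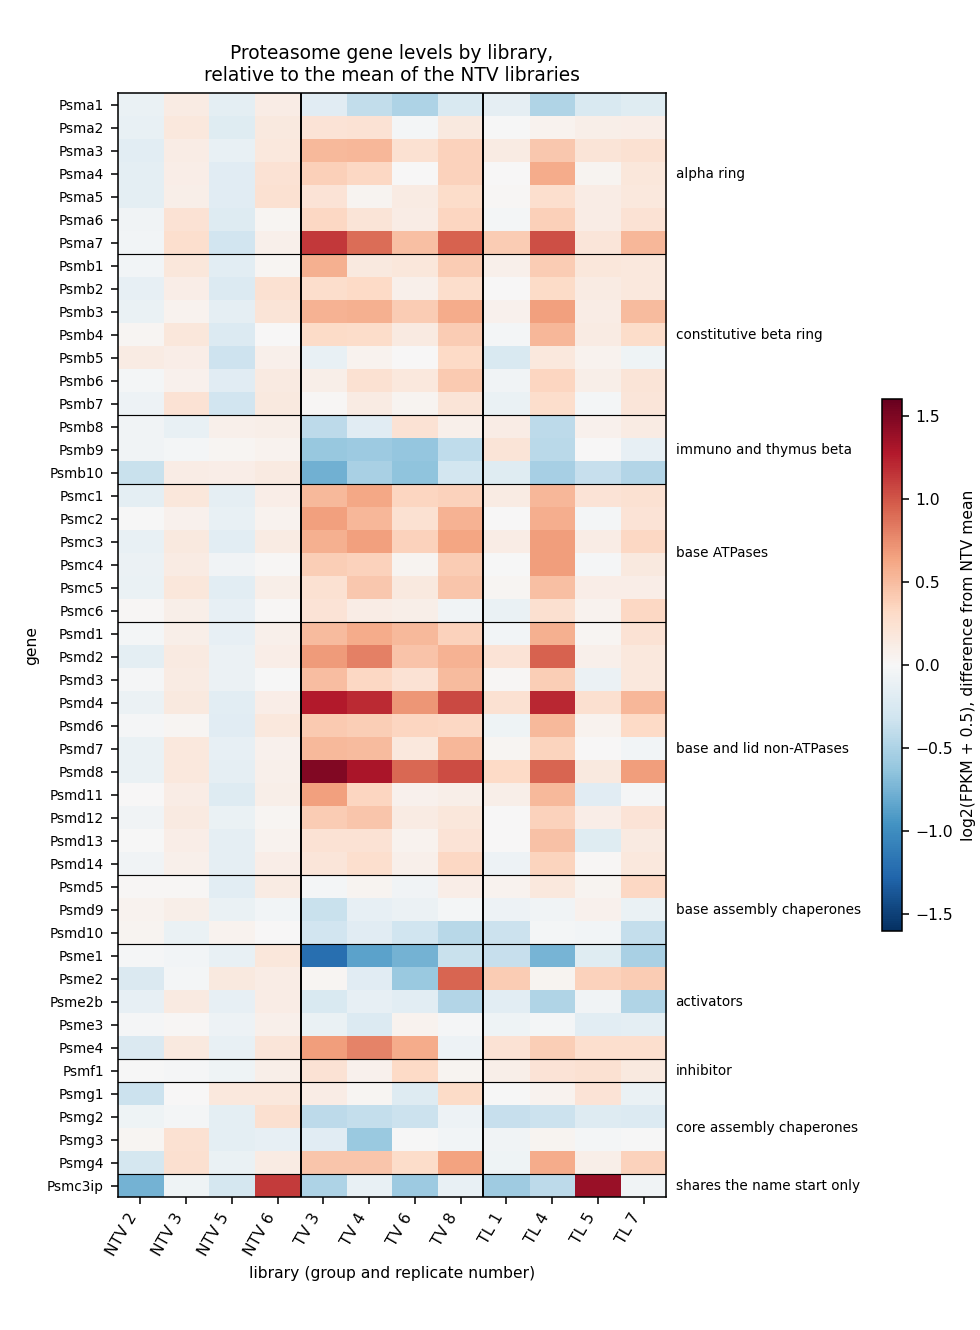
Each cell gives the level of 1 of the 48 tested genes (rows, ordered by class) in 1 of the 12 libraries (columns), as the difference in log2(FPKM + 0.5) from the mean of the 4 NTV libraries, red for higher and blue for lower. Most core and cap genes are red in the TV libraries and in TL replicate 4, with Psmd8, Psmd4 and Psma7 the deepest, while Psme1, Psmb9 and Psmb10 are blue there.

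TV was set against NTV to find the muscle transcripts that differed with the tumour under vehicle. The rises in TV lay mainly in the cap. Of 48 tested members 13 rose and 5 fell (limma, Benjamini-Hochberg adjusted p under 0.05). Those that rose were 10 of 17 cap subunits and 3 of 14 tested core subunits. Of all 12754 tested genes 25.2% were called, 13.8% higher and 11.5% lower. By voom on the recovered reads 8 rose and 6 fell. The NTV and TV libraries did not overlap for 18 members, 13 with TV above and 5 with TV below, where this held for 27.1% of all tested genes (14.4% above, 12.7% below). All 13 that rose are core or cap subunits. The 5 that fell are the immunoproteasome subunits Psmb9 and Psmb10, the activator Psme1, the alpha subunit Psma1 and the base chaperone Psmd10. The median log2 change was 0.24 over the 48 members and 0.30 over the 31 core and cap subunits, against 0.02 over all tested genes. Of those 31, 30 had a positive estimate, and 27 did when libraries were scaled to 1 total that left out mitochondrial and the 50 most abundant genes, under quantile normalization and under voom.

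Below, values are listed by replicate number, 2, 3, 5 and 6 in NTV, 3, 4, 6 and 8 in TV, and 1, 4, 5 and 7 in TL. A log2 change is a difference in log2(FPKM + 0.5), given ± its SE in the limma fit to all 12 libraries, and its p is adjusted over all tested genes. Means are ± SD (n = 4).

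The non-ATPase subunits of the cap held the largest rises, with 7 of 11 called higher and none lower, beside 13.8% and 11.5% of all tested genes. Psmd8 stood at 41.1, 49.5, 39.8 and 46.9 FPKM in NTV, 125, 110.1, 83.7 and 91.4 in TV and 55.1, 85, 49.2 and 70.3 in TL. Psmd8, a subunit of the lid of the cap on chromosome 7 (29174188 to 29180701, mm10), was thus above every NTV library in every TV library. It had a mean of 44.3 ± 4.64 FPKM in NTV and rose to 102 ± 18.5 in TV (log2 change 1.19 ± 0.18, adjusted p = 0.00153). Psmd4 stood at 41.1, 48.9, 39.2 and 47.6 FPKM in NTV, 107, 102, 72 and 92.3 in TV and 52.1, 102, 52.5 and 64 in TL. Psmd4, a receptor for ubiquitin chains on chromosome 3 (95032694 to 95042614, mm10), separated NTV from TV in the same way, and TL replicate 4 lay among the TV libraries. It had a mean of 44.2 ± 4.77 FPKM in NTV and rose to 93.3 ± 15.5 in TV (log2 change 1.06 ± 0.20, adjusted p = 0.00443).

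Psmd2 stood at 64.6, 79.2, 67.2 and 77.8 FPKM in NTV, 115, 126, 98.8 and 106 in TV and 83.8, 138, 76.2 and 80.8 in TL. This scaffold of the cap, on which shuttle proteins dock, was higher in every TV library than in any NTV library, and its highest value of all was in TL replicate 4. Psmd2 rose by a log2 change of 0.62 ± 0.17 (adjusted p = 0.0221). Leaving out NTV replicate 2 or 5, or TV replicate 3 or 4, ended this call (adjusted p up to 0.0631). Psmd1 stood at 20.04, 21.8, 18.7 and 21.7 FPKM in NTV, 29.4, 31.1, 29.5 and 26.7 in TV and 19.9, 30.5, 21 and 24.2 in TL. Psmd1, the second large scaffold, which binds the ubiquitin receptor Adrm1, kept NTV and TV apart, with TL replicates 1 and 5 inside the NTV range. The rise was 0.50 ± 0.12 (adjusted p = 0.0143).

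The other called non-ATPases changed less. Psmd7, the partner of the deubiquitinase Psmd14, went from 63.2 ± 6.55 to 85.4 ± 9.75 FPKM (log2 change 0.43 ± 0.12, adjusted p = 0.0253), with TV replicate 6 inside the NTV range at 70.8 FPKM. Leaving out the same libraries one at a time ended its call too (up to 0.0688), as did quantile normalization and voom. The lid subunits Psmd3 (0.39 ± 0.11, adjusted p = 0.0259) and Psmd6 (0.37 ± 0.13, adjusted p = 0.0475) were above every NTV library in every TV library. Both calls were fragile. That of Psmd3 ended when NTV 2, 5 or 6 or TV 3 or 8 was left out (up to 0.0667), and that of Psmd6 when any 1 of the NTV or TV libraries or TL 5 or 7 was (up to 0.12). Both were also lost under an equal total, with or without mitochondrial and the most abundant genes, under quantile normalization and under voom. Psmd14 itself, which removes ubiquitin at the cap, was not called (0.22 ± 0.11, adjusted p = 0.147), nor were Psmd11, Psmd12 and Psmd13, with estimates from 0.18 to 0.29.

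Among the ATPases that form the unfolding ring of the cap, 3 of 6 rose, beside 13.8% of all tested genes. Psmc3 stood at 64.4, 77.9, 61.8 and 76.8 FPKM in NTV, 104, 110.1, 90.3 and 108 in TV and 76.1, 111, 76 and 88.1 in TL. Every TV library was above every NTV library, and TL replicate 4 was as high as the TV libraries. Psmc3 rose by 0.56 ± 0.14 (adjusted p = 0.0134). Exons of Psmc3 overlap those of Slc39a13 on the other strand. Strand-specific counting is not given in the sources used here, so reads of such pairs cannot be told apart, as also for Psmd3 with Gm12356, Psmd1 with Htr2b, Psmb7 with Nek6 and Psmb8 with Gm20496. Psmc2 stood at 24.8, 26.2, 22.9 and 26 FPKM in NTV, 39.5, 36.1, 29.7 and 36.9 in TV and 25, 37.6, 24.4 and 29.2 in TL. The lowest TV value, in replicate 6, was still above the highest NTV value. Psmc2 rose by 0.49 ± 0.14 (adjusted p = 0.022), a call that was lost when NTV 2, NTV 5, TV 3 or TV 4 was left out (up to 0.061), under an equal total and under voom.

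Psmc1 stood at 54.3, 69, 55 and 65.3 FPKM in NTV, 87.3, 92.9, 77.3 and 78.6 in TV and 66.6, 88, 70.5 and 72.1 in TL. TV again lay above NTV throughout, and TL replicates 5 and 7 fell between those ranges. The rise of Psmc1 was 0.46 ± 0.12 (adjusted p = 0.0152). It was not called without the libraries with Ucp1 above 2 FPKM. The same removal ended the calls of Psma1, Psma3, Psmd2, Psmd3, Psmd6, Psmd7 and Psmd10. Psmc4 (0.30 ± 0.15) and Psmc5 (0.32 ± 0.13) missed the threshold (adjusted p = 0.154 and 0.0791), and Psmc6 had the smallest estimate of the 6 (0.09 ± 0.11, adjusted p = 0.566). Over the whole cap, 10 of 17 subunits rose and 0 fell, beside 13.8% and 11.5% of all tested genes, with a median log2 change of 0.39. At an unadjusted p under 0.05, 25 of the 48 members passed, 19 higher and 6 lower. The share of all tested genes at that level was not computed, and 25.2% of them passed even after adjustment.

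In the core, 3 of 14 tested subunits rose and 1 fell, a count near the shares of all tested genes (13.8% higher and 11.5% lower), with a median log2 change of 0.25. Psma7 stood at 30.1, 37.8, 25.2 and 32.8 FPKM in NTV, 68.7, 58.2, 43.7 and 60.6 in TV and 41.5, 64, 35.6 and 45 in TL. Psma7, an alpha ring subunit on chromosome 2 (180036374 to 180042433, mm10), was higher in every TV library than in any NTV library. It had a mean of 31.5 ± 5.26 FPKM in NTV and rose to 57.8 ± 10.4 in TV (log2 change 0.86 ± 0.19, adjusted p = 0.00821). Psma3, of the same ring, rose by 0.42 ± 0.11 (adjusted p = 0.0164), without overlap between NTV and TV. Its call ended without NTV replicate 2 (adjusted p = 0.0508) and under voom. Psma1 went the other way, from 30.5 ± 3.24 to 24.2 ± 2.39 FPKM (log2 change -0.33 ± 0.11, adjusted p = 0.044), although it sits in that ring too. This call was lost when NTV 2, 3 or 6, TV 4 or 6, or TL 1, 5 or 7 was left out (up to 0.113), and also under an equal total, with no filter on low values and with only NTV and TV in the fit.

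Psmb3 stood at 33.9, 38.1, 33 and 42.1 FPKM in NTV, 54.2, 54.6, 48.7 and 55.6 in TV and 38.5, 58.1, 39.7 and 52.1 in TL. Psmb3, a beta ring subunit with no cutting site, was higher in every TV library than in any NTV library, and TL replicates 4 and 7 were within or above the TV range. It was the 1 member of 7 in the constitutive beta ring that passed the test (log2 change 0.53 ± 0.14, adjusted p = 0.0158). The other members of that ring had positive estimates, from 0.07 for Psmb5 to 0.33 for Psmb1 (adjusted p = 0.0558).

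The cutting subunits of the constitutive core were among those that did not pass. Psmb5 stood at 48.9, 47.8, 35.3 and 47.2 FPKM in NTV, 40.9, 46.2, 44.7 and 55.5 in TV and 37.3, 49.98, 46 and 42.2 in TL. Psmb5 carries the chymotrypsin-like site, and its groups overlapped, NTV replicate 5 being the lowest of all. Psmb6 stood at 60.9, 65.8, 55 and 69.1 FPKM in NTV, 66.5, 73.7, 70.5 and 83.9 in TV and 59.99, 79.6, 66.9 and 72.1 in TL. For Psmb6, the caspase-like subunit, TV replicate 8 was the highest and NTV replicate 5 the lowest, with overlap between them. Psmb7 stood at 42.8, 53.2, 36.4 and 50.3 FPKM in NTV, 45.7, 49.4, 46.5 and 52 in TV and 42.1, 55.2, 44.1 and 51.6 in TL. The trypsin-like subunit Psmb7 overlapped in the same way. The 95% intervals of the log2 change were -0.23 to 0.36, -0.02 to 0.48 and -0.19 to 0.38, so changes of the size seen for Psmd8 and Psmd4 lay outside all 3.

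**Figure D2:**
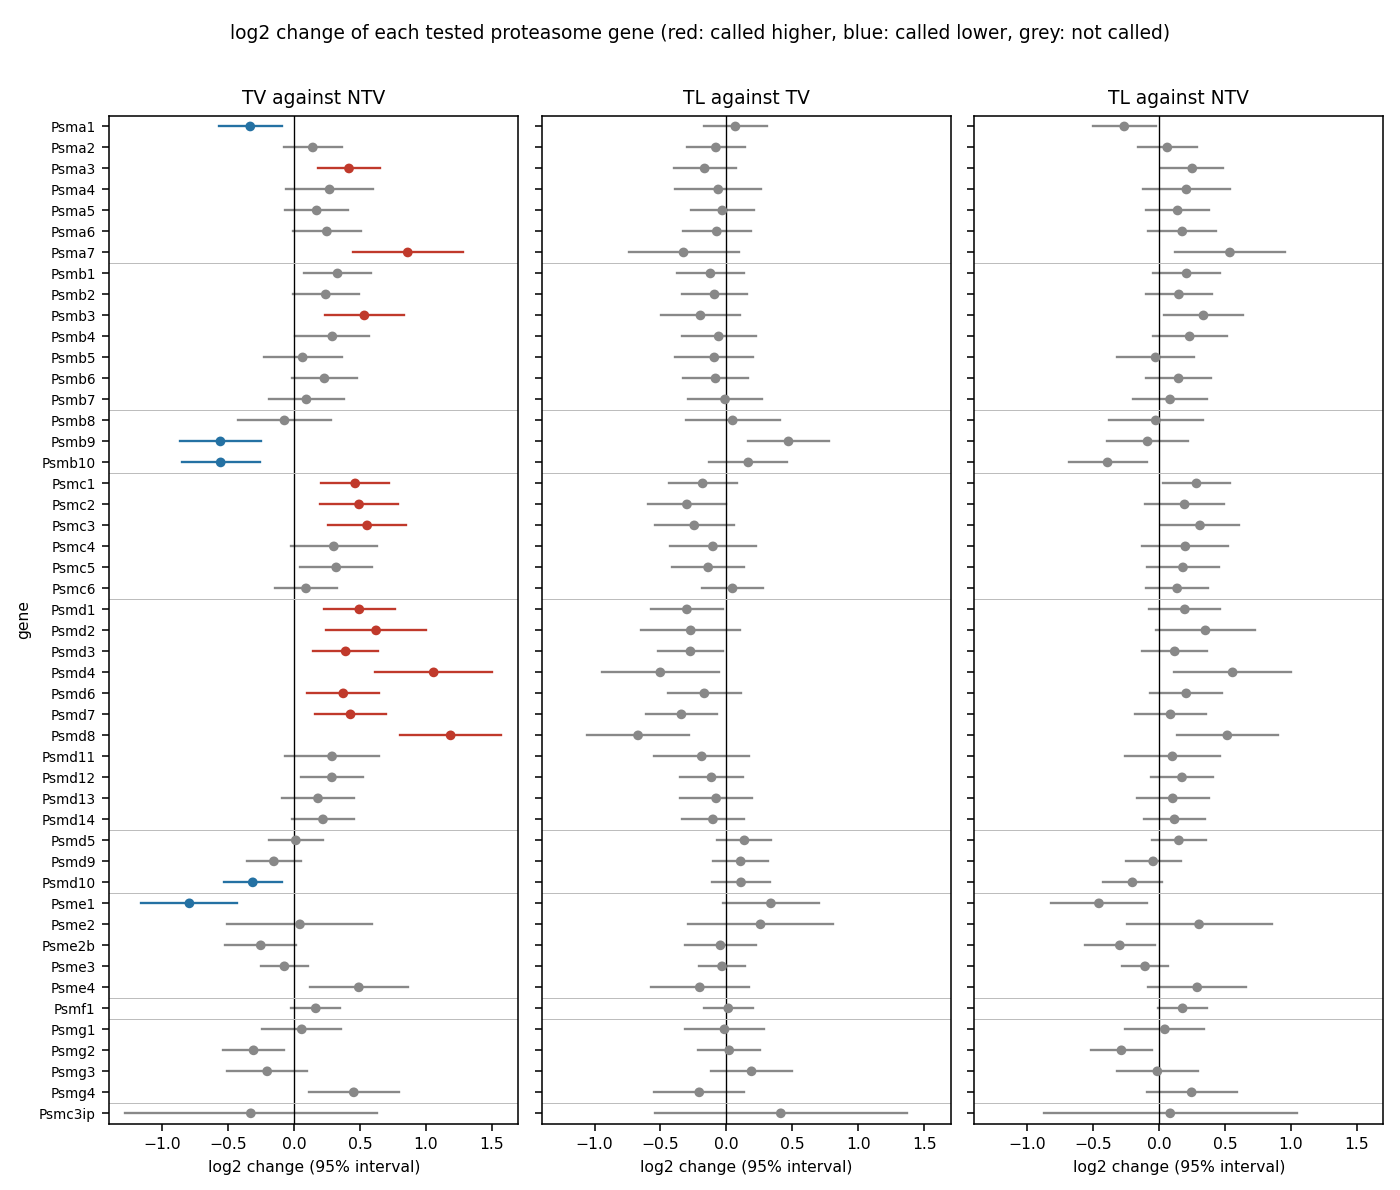
Points are the log2 changes of the 48 tested genes in each of the 3 comparisons and bars are 95% intervals from limma; red marks genes called higher, blue genes called lower and grey genes not called. TV against NTV holds 13 red and 5 blue genes, led by Psmd8 at 1.19 and Psme1 at -0.79, and the other panels hold grey genes alone.

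Of the 3 immunoproteasome subunits, Psmb9 and Psmb10 fell in TV and Psmb8 was not called, where 11.5% of all tested genes were called lower. Psmb9 stood at 0.793, 0.815, 0.88 and 0.90 FPKM in NTV, 0.381, 0.398, 0.376 and 0.512 in TV and 1.05, 0.502, 0.852 and 0.73 in TL. Every TV library was below every NTV library, and TL ranged from the level of TV in replicate 4 to above all of NTV in replicate 1. Psmb9, which replaces Psmb6, fell from 0.847 ± 0.0508 to 0.417 ± 0.0643 FPKM (log2 change -0.56 ± 0.14, adjusted p = 0.0149). At levels this low the added 0.5 FPKM makes the log2 change smaller than that of the FPKM means. The levels rest on 23 to 71 reads per library, and exons of Psmb9 overlap those of Tap1 on the other strand. Psmb10 stood at 6.3, 8.92, 8.83 and 9.07 FPKM in NTV, 4.62, 5.55, 5.08 and 6.59 in TV and 7.11, 5.52, 6.23 and 5.79 in TL. NTV replicate 2 stood below the other NTV libraries and inside the TV range. Psmb10, which replaces Psmb7, fell by 0.56 on the log2 scale (log2 change -0.56 ± 0.14, adjusted p = 0.0129).

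Psmb8 stood at 1.36, 1.29, 1.54 and 1.57 FPKM in NTV, 0.945, 1.21, 1.77 and 1.55 in TV and 1.6, 0.944, 1.54 and 1.62 in TL. Psmb8, which replaces Psmb5, overlapped across groups: TV replicate 6 was the highest library of all and TV replicate 3 and TL replicate 4 the lowest. Its change was -0.07 ± 0.16 (95% interval -0.43 to 0.28, adjusted p = 0.782). Of the 7 tested genes of interferon control and antigen presentation, among them Irf1, Tap1 and B2m, 0 were called, where 25.2% of all tested genes were. All 7 estimates were negative, with a median of -0.19. Irf1, an interferon-induced transcription factor, was at 2.43 ± 0.37 FPKM in NTV and 1.65 ± 0.461 in TV (log2 change -0.46 ± 0.20, adjusted p = 0.109). The fibroblast and endothelial marker sums above were lower in TV as well, with 3 of 5 and 2 of 5 markers called lower, beside 11.5% of all tested genes. Of 4 tested leukocyte markers 0 were called. With 25.2% of all tested genes called, 0 of 4 or 0 of 7 does not set a list apart. The part of these cell types in the fall of Psmb9, Psmb10 and Psme1 was not tested.

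A ratio of an immunoproteasome subunit to the one it replaces, was taken within each library, on FPKM + 0.5, so that the scaling of the library enters only through the added 0.5. For Psmb9 to Psmb6 the log2 ratio was -5.57, -5.66, -5.33 and -5.64 in NTV, -6.25, -6.37, -6.34 and -6.38 in TV and -5.29, -6.32, -5.64 and -5.88 in TL. All TV ratios were below all NTV ratios, and TL replicate 4 was among the TV ratios. The difference of TV from NTV was -0.79 (two-sided exact permutation p = 0.0286, the smallest that 4 against 4 can give, and 0.129 adjusted over 9 tests). Psmb10 to Psmb7 stood at -2.67, -2.51, -1.99 and -2.41 in NTV, -3.17, -3.04, -3.07 and -2.89 in TV and -2.48, -3.21, -2.73 and -3.05 in TL. Here too NTV and TV did not overlap, with a difference of -0.65 (exact permutation p = 0.0286, adjusted 0.129).

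Psmb8 to Psmb5 did overlap, at -4.73, -4.76, -4.13 and -4.53 in NTV and -4.84, -4.78, -4.32 and -4.77 in TV, and its difference was -0.14 (exact permutation p = 0.457, adjusted 0.588). In TL against TV the ratio of Psmb9 to Psmb6 was 0.55 higher (exact permutation p = 0.0571, adjusted 0.171). The remaining 5 comparisons had exact permutation p-values from 0.0857 to 1. None of the 9 passed after adjustment.

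**Figure D3:**
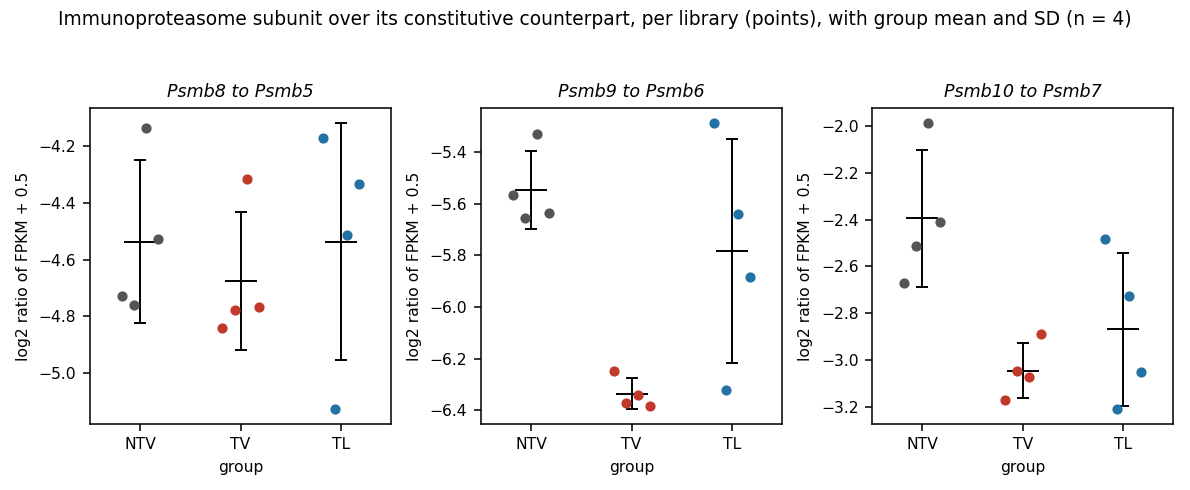
Points are libraries, horizontal bars group means and error bars SD (n = 4), for the log2 ratio of FPKM + 0.5 of each immunoproteasome subunit over the constitutive subunit it replaces; the axes do not start at 0 and differ between panels. TV lies below NTV without overlap for Psmb9 to Psmb6 and for Psmb10 to Psmb7, and overlaps it for Psmb8 to Psmb5.

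Of the 5 activator genes 1 fell and none rose, beside 11.5% and 13.8% of all tested genes. Psme1 stood at 19.7, 19.3, 18.2 and 22.6 FPKM in NTV, 8.38, 10.8, 11.6 and 15.4 in TV and 15.4, 11.6, 17.4 and 13.8 in TL. NTV was the highest group throughout, TV replicate 3 was the lowest library, and all TL libraries lay below the lowest NTV library. Psme1, which with Psme2 forms an interferon-inducible activator that can cap the core in place of the ATPase cap, lies on chromosome 14 (55578123 to 55581529, mm10). It fell from 19.97 ± 1.87 to 11.5 ± 2.92 FPKM (log2 change -0.79 ± 0.17, adjusted p = 0.00642). Exons of Psme1 overlap those of Emc9 on the other strand.

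Psme2 stood at 3.35, 3.92, 4.55 and 4.4 FPKM in NTV, 4.12, 3.49, 2.51 and 8.13 in TV and 5.49, 4.16, 5.34 and 5.5 in TL. Psme2 did not follow its partner (log2 change 0.05 ± 0.25, adjusted p = 0.917), and TV replicate 8 was its highest library by a wide margin. Psme2b stood at 11.3, 13.7, 11.4 and 13.6 FPKM in NTV, 10.4, 11.3, 11.1 and 8.87 in TV and 11, 8.78, 11.9 and 8.8 in TL. Psme2b is a near-identical copy of Psme2, so how reads were divided between these 2 genes is uncertain. TV replicate 8 was the lowest TV library for the copy, all TV libraries were below NTV, and it was not called (log2 change -0.25 ± 0.12, adjusted p = 0.15).

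Psme3 stood at 22.3, 22.8, 21.4 and 23.8 FPKM in NTV, 21, 19.3, 23.5 and 22.2 in TV and 21.5, 22, 20.01 and 20.3 in TL. Psme3, the nuclear relative of Psme1, overlapped across groups (log2 change -0.07 ± 0.08, adjusted p = 0.547). Psme4 stood at 25, 32.7, 27 and 33.7 FPKM in NTV, 46.9, 51.2, 44.7 and 27.7 in TV and 34.4, 38.9, 35.6 and 35.4 in TL. For Psme4, a large single-chain activator, TV replicates 3, 4 and 6 were above every NTV library and replicate 8 was inside the NTV range. It missed the threshold (log2 change 0.49 ± 0.17, adjusted p = 0.0532) and was called without TV replicate 8 (0.68, adjusted p = 0.00325). Psmf1 stood at 2.72, 2.68, 2.57 and 2.93 FPKM in NTV, 3.29, 2.87, 3.52 and 2.83 in TV and 2.95, 3.25, 3.32 and 3.09 in TL. Psmf1, known as a proteasome inhibitor, differed little between groups in absolute terms (log2 change 0.17 ± 0.09, adjusted p = 0.173), and its TL libraries were all above NTV.

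The assembly chaperones showed no shared direction. Psmg1 stood at 5.62, 7.28, 8.22 and 8.27 FPKM in NTV, 7.94, 7.41, 6.22 and 9.06 in TV and 7.25, 7.6, 8.57 and 6.73 in TL. Psmg2 stood at 27.1, 27.6, 25.3 and 34 FPKM in NTV, 21.2, 21.6, 22.3 and 26.7 in TV and 21.9, 22.3, 24.5 and 24.2 in TL. Psmg1 and Psmg2 form the first chaperone pair of the alpha ring. Psmg1 overlapped across groups (log2 change 0.06 ± 0.14, adjusted p = 0.785), whereas Psmg2 was lower in TV replicates 3, 4 and 6 than in NTV and missed the threshold (log2 change -0.31 ± 0.11, adjusted p = 0.0549). Psmg2 was called lower under voom, under 3 other scalings, with library weights, and without NTV replicate 5 or TV replicate 8.

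Psmg3 stood at 1.5, 1.81, 1.25 and 1.28 FPKM in NTV, 1.22, 0.793, 1.45 and 1.4 in TV and 1.37, 1.51, 1.41 and 1.44 in TL. Psmg4 stood at 13.5, 19.98, 15.3 and 18.2 FPKM in NTV, 22.7, 22.7, 20.5 and 26.1 in TV and 15.8, 25.3, 17.8 and 21.5 in TL. Psmg3 and Psmg4 are the second pair. Psmg3 was weakly expressed and overlapped (log2 change -0.20 ± 0.14, adjusted p = 0.31), while Psmg4 was higher in every TV library than in any NTV library without passing the test (log2 change 0.45 ± 0.16, adjusted p = 0.052). Psmg4 was called in 8 of 29 alternatives, among them those without NTV replicate 3, TL replicate 1 or TL replicate 4. The lowest adjusted p over all 29 was 0.0339. Of the base chaperones, Psmd10, also known as gankyrin, fell from 6.26 ± 0.346 to 4.95 ± 0.402 FPKM (log2 change -0.31 ± 0.10, adjusted p = 0.0422). Its call was lost when NTV 2, 5 or 6 or TV 3, 6 or 8 was left out (up to 0.0947), and also under an equal total, with no filter and with library weights. Psmd5 (0.01 ± 0.09) and Psmd9 (-0.15 ± 0.10) were not called.

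**Figure D4:**
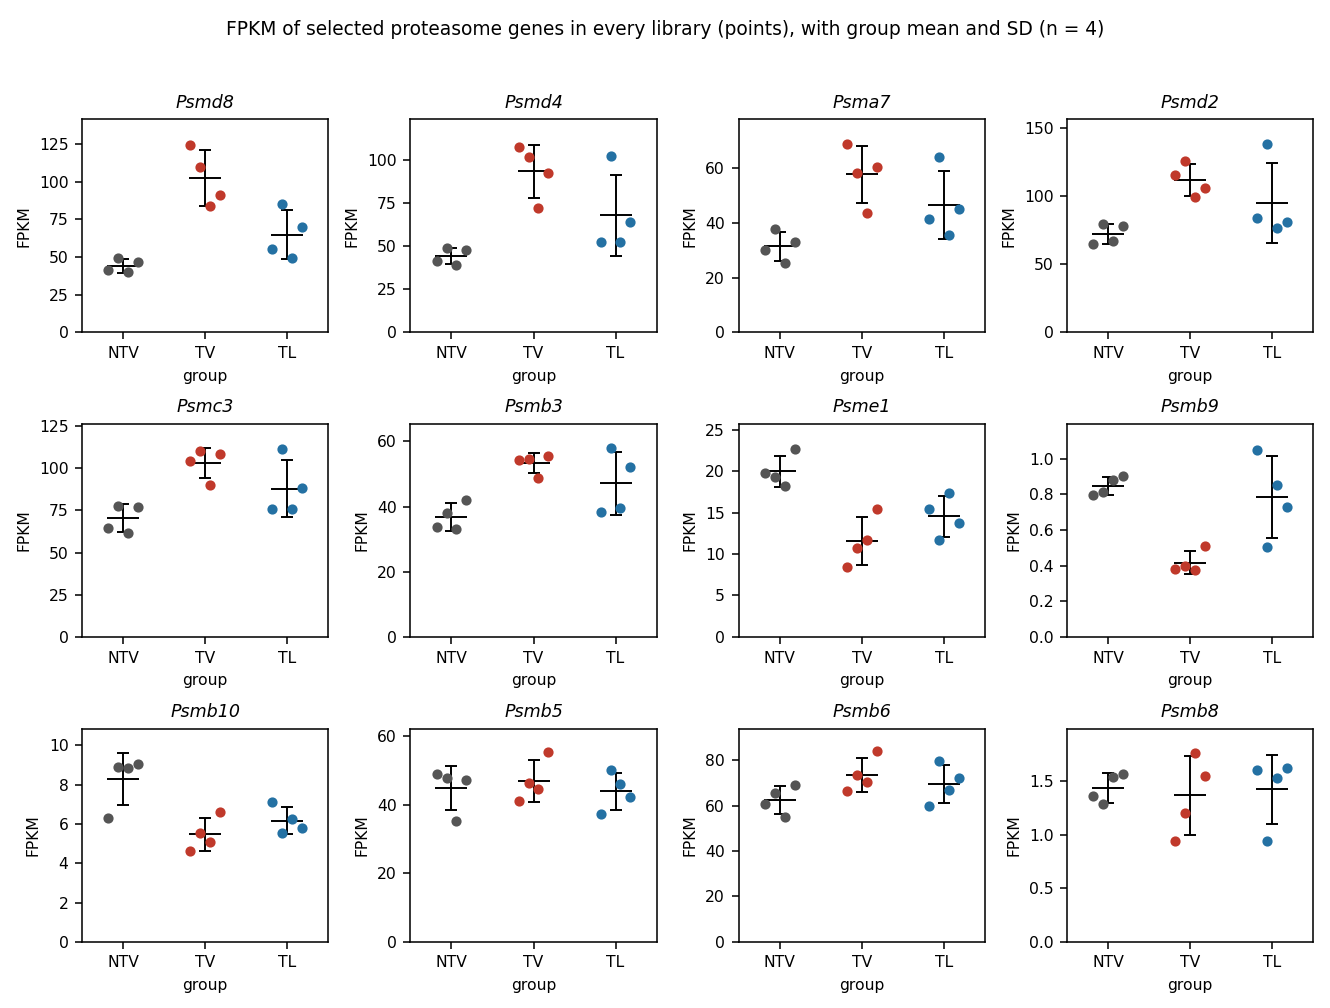
FPKM of 12 members by group, 1 panel per gene with its own axis from 0; points are libraries, horizontal bars means and error bars SD (n = 4). For Psmd8, Psmd4, Psma7, Psmd2, Psmc3 and Psmb3 the TV points lie above all NTV points, for Psme1 and Psmb9 they lie below, and for Psmb10, Psmb5, Psmb6 and Psmb8 the groups overlap.

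The count of 18 calls fell to 10 without NTV replicate 2, and to 10 without the libraries with Ucp1 above 2 FPKM. The calls of Psmd8, Psmd4, Psma7, Psmc3, Psmb3, Psmd1, Psme1, Psmb9 and Psmb10 held when any 1 library was left out, as did that of Psmc1.

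Genes that act with the proteasome but fall outside the naming rule were followed as well. Of 39 listed, 38 were found and 37 tested, of which 11 rose and 2 fell in TV (35.1% called, where 25.2% of all tested genes were, 13.8% higher and 11.5% lower). Among the regulators of proteasome gene transcription, 2 of 4 rose. Nfe2l2 stood at 9.13, 13.6, 12.2 and 11.8 FPKM in NTV, 54.2, 29.5, 17.3 and 44.2 in TV and 15.9, 18.2, 12.1 and 17.3 in TL. Nfe2l2, the antioxidant response factor, was higher in every TV library than in any NTV library but spread widely within TV, from replicate 6 to replicate 3. It rose by 1.49 ± 0.29 (adjusted p = 0.00459). Ddi2 stood at 8.82, 9.21, 9.52 and 9.89 FPKM in NTV, 27.9, 26.9, 23.9 and 17.2 in TV and 9.49, 14.7, 8.67 and 11.3 in TL. Ddi2, the protease that cuts and activates the Nfe2l1 protein, was narrow in NTV and higher in all of TV, and all TL libraries were below the lowest TV library. It rose by 1.29 ± 0.17 (adjusted p = 0.00122).

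Nfe2l1 stood at 99.5, 123, 108 and 109 FPKM in NTV, 168, 159.9, 103 and 128 in TV and 128, 127, 98.8 and 99.3 in TL. Nfe2l1, which restores proteasome gene expression when proteasome activity is short, overlapped because TV replicate 6 was inside the NTV range (log2 change 0.32 ± 0.16, adjusted p = 0.154). Adrm1 stood at 19.4, 21.5, 20.5 and 19.6 FPKM in NTV, 35.3, 31.3, 29.8 and 33.9 in TV and 25.8, 32.3, 23.9 and 26.9 in TL. Adrm1, the ubiquitin receptor that binds Psmd1, was higher in both TV and TL than in any NTV library. It rose by 0.67 ± 0.10 in TV (adjusted p = 0.00153).

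The shuttles and the segregase that hand substrates to the cap had 5 of 8 called higher and none lower, beside the 13.8% of all tested genes called higher. Nploc4 stood at 18.7, 21.7, 20.5 and 20.5 FPKM in NTV, 52.5, 50.1, 36.3 and 30.01 in TV and 27.4, 43.6, 26 and 27.7 in TL. TV replicates 3 and 4 were the highest, and Nploc4, a cofactor of the segregase Vcp, was above NTV in every tumour-bearing mouse (log2 change 1.0 ± 0.19, adjusted p = 0.00463 in TV). Zfand5 stood at 57.6, 61.9, 51.7 and 54.3 FPKM in NTV, 121, 108, 91.5 and 71.1 in TV and 54.4, 70.4, 49.2 and 64.9 in TL. Zfand5 binds the proteasome and is known to be induced in wasting muscle. Every TV library was above every NTV and every TL library (log2 change 0.77 ± 0.16, adjusted p = 0.00676 in TV).

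Of the ubiquitin genes, Ubb, a chain of ubiquitin repeats, was at 218, 223, 191 and 249.9 FPKM in NTV, 460.3, 406, 319 and 458 in TV and 257, 339.7, 266 and 313 in TL. NTV was below both other groups. The rise in TV was 0.89 ± 0.15 (adjusted p = 0.00235). The 2 that fell, named here after their values were seen, were Uba6, a ubiquitin-activating enzyme (-0.49 ± 0.10), and Ube3c, a ligase of the proteasome (-0.27 ± 0.08).

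Other factors of the particle itself were not called. Pomp, which drives maturation of the core, had means of 13 ± 1.49, 12.9 ± 0.662 and 13 ± 1.4 FPKM in NTV, TV and TL (-0.01 ± 0.10 in TV). Sem1, the smallest subunit of the lid, had 12 ± 1.23, 12.7 ± 1.92 and 12.4 ± 1.49 FPKM (0.07 ± 0.12). The deubiquitinases Usp14 (0.12 ± 0.10) and Uchl5 (0.34 ± 0.15) had adjusted p-values of 0.438 and 0.104.

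**Figure D5:**
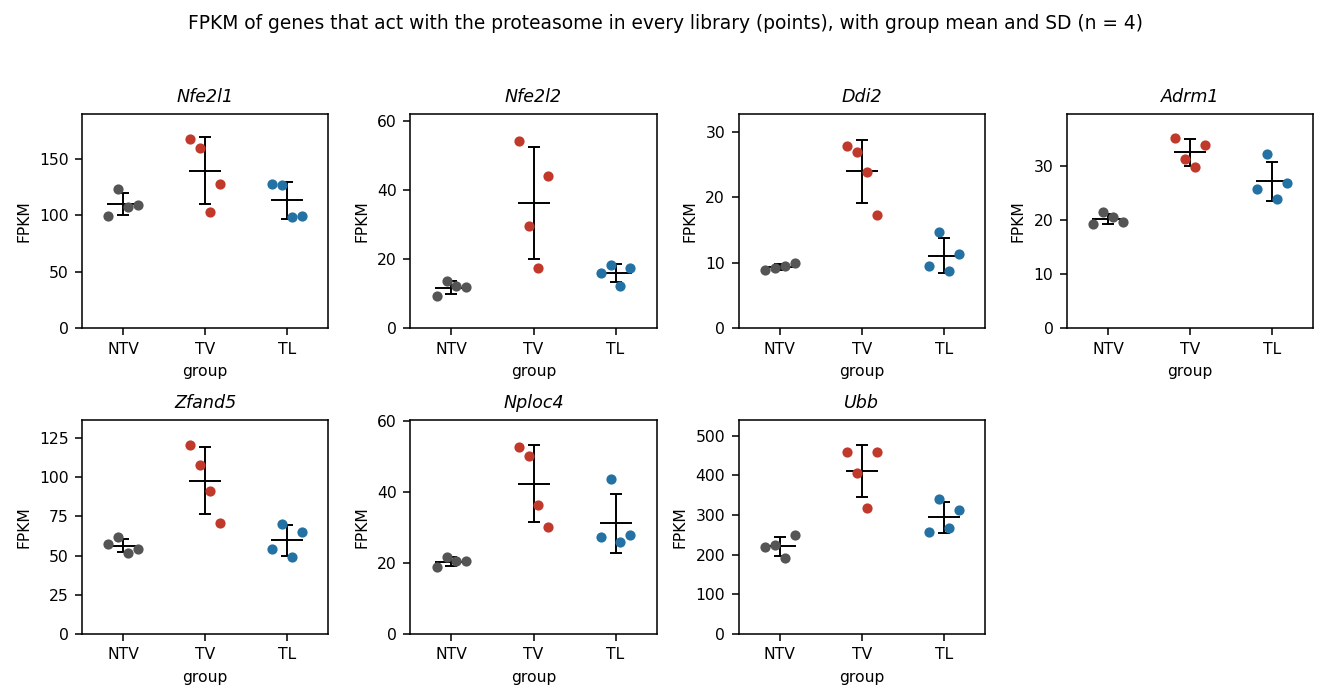
FPKM of 7 genes that act with the proteasome, by group, each panel with its own axis from 0; points are libraries, horizontal bars means and error bars SD (n = 4). For Nfe2l2, Ddi2, Adrm1, Zfand5, Nploc4 and Ubb the TV points lie above all NTV points, for Ddi2 and Zfand5 the TL points lie below all TV points, and for Nfe2l1 the groups overlap.

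The comparison of TL with TV asked what selpercatinib changed in tumour-bearing mice. Of the 48 members, 0 were called by limma, where 0.517% of all tested genes were. For 0 members were the TL libraries all above or all below the TV libraries, where 7.42% of all tested genes had such a separation (3.36% above). At an unadjusted p under 0.05 there were 7, 1 higher and 6 lower, and voom called 0, with 6 at an unadjusted p under 0.05. The share of all tested genes at that unadjusted level was not computed. The 6 lower ones were all cap subunits: Psmd8, Psmd4, Psmd7, Psmd1, Psmd3 and Psmc2. All 6 had been called higher in TV against NTV. This comparison shares its TV libraries with that one, so these results are not independent of those calls. Psmd8 was at 64.9 ± 16.1 FPKM in TL and 102 ± 18.5 in TV, a log2 change of -0.67 ± 0.18 (95% interval -1.05 to -0.29, adjusted p = 0.116). For Psmd4 it was -0.50 ± 0.20 (-0.94 to -0.06, adjusted p = 0.255), and for Psmd7 -0.34 ± 0.12 (adjusted p = 0.21). The 1 higher was Psmb9, at 0.784 ± 0.23 FPKM in TL (log2 change 0.47 ± 0.14, adjusted p = 0.153). Psmb9 had been called lower in TV against NTV, with the same TV libraries.

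The median over the 31 core and cap subunits was -0.12, with 29 negative estimates, but 15 were negative under voom (median 0.01) and 20 under quantile normalization. Voom moved the median of all tested genes to 0.13, and relative to it the median of the 31 was again -0.12, with 29 of them below it. All 11 non-ATPases had negative estimates (median -0.27), with 8 negative under voom, all 11 below its median of all genes, and 10 negative under quantile normalization. Without TL replicates 1 and 5, a choice made after the data were seen, 18 of the 31 were negative and the median was -0.02.

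TL replicate 4 stood apart from the other treated mice. Its median difference from the NTV mean over the core and cap subunits was 0.46, against 0.00 in replicate 1, 0.10 in replicate 5 and 0.19 in replicate 7, while the TV libraries had 0.41, 0.34, 0.16 and 0.37. It was above the highest NTV library for 29 of the 31 subunits, compared with 4, 4 and 19 for TL replicates 1, 5 and 7, and it was the highest TL library for 28 of them. Such shares over all tested genes were not computed. Its place near TV was not particular to these subunits. On the first principal component of all tested genes, the axis of largest spread, it lay at 27.6, and TV at 14.2 to 39.1. TL replicates 1, 5 and 7 lay there at -0.56, -10.4 and 9.67. TL replicate 4 also had the lowest leukocyte (18.1 FPKM), endothelial (42.3) and fibroblast (29.5) marker sums of TL and the lowest mitochondrial share of that group, 6.04%. The part of these in its proteasome levels was not tested. Without TL replicate 4, 3 members were called: Psmd8 (-0.81, adjusted p = 0.0376), Psmd4 (-0.72, adjusted p = 0.0406) and Psmb9 (0.58, adjusted p = 0.0449). The share of all tested genes called without that library was not computed, so these 3 calls cannot be set against it.

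Of the 37 related genes, Ddi2 was the 1 called in TL against TV (2.7%), where 0.517% of all tested genes were. It stood at 11 ± 2.67 FPKM in TL and 24 ± 4.79 in TV (log2 change -1.09 ± 0.17, adjusted p = 0.020). It was no longer called when TV 3, TV 4, TL 1, TL 5 or TL 7 was left out (highest adjusted p 0.0735). Nfe2l2 (-1.06 ± 0.29, adjusted p = 0.124) and Zfand5 (-0.70 ± 0.16, adjusted p = 0.0854) had negative estimates without passing, and all TL libraries of Zfand5 were below all TV libraries, as 4.05% of all tested genes were.

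The comparison of TL with NTV asked how treated tumour-bearing mice differed from tumour-free ones. It shares its NTV libraries with the first comparison and its TL libraries with the second. Of the 48 members, 0 were called by limma, where 8.81% of all tested genes were (4.19% higher, 4.62% lower). An unadjusted p under 0.05 was found for 12, 7 higher and 5 lower, and voom called 0, with 11 at an unadjusted p under 0.05. Here too the share of all tested genes at that unadjusted level was not computed. The largest estimates were those of Psmd4 (log2 change 0.56 ± 0.20, adjusted p = 0.101), Psma7 (log2 change 0.54 ± 0.19, adjusted p = 0.0959) and Psmd8 (log2 change 0.52 ± 0.18, adjusted p = 0.0846). On the lower side were Psme1 (log2 change -0.46 ± 0.17, adjusted p = 0.104) and Psmb10 (log2 change -0.39 ± 0.14, adjusted p = 0.091). The median was 0.18 over the 31 core and cap subunits and 0.02 over all tested genes.

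The 4 TL libraries were all above NTV for 3 members, Psmd4, Psme4 and Psmf1, and all below for Psme1 and Psmg2, where 10.8% and 10.1% of all tested genes were, 20.8% in all. Several members crossed the threshold when libraries were left out. Psmb10 was called lower without NTV replicate 2 (-0.51, adjusted p = 0.0404), and Psmd8 higher without TL replicate 5 (0.64, adjusted p = 0.0444). Without TL replicates 1 and 5, Psmd4 (0.87), Psmd8 (0.80), Psma7 (0.78) and Psmb3 (0.58) were called higher and Psme2b (-0.48) lower. That removal was chosen after the data were seen. The shares of all tested genes called with these libraries left out were not computed, so the calls cannot be set against them.

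Among the related genes, 4 of 37 were called higher in TL than in NTV and 1 was called lower, where 4.19% and 4.62% of all tested genes were. Adrm1 was higher (log2 change 0.41 ± 0.10, adjusted p = 0.0277), as was, named after its values were seen, the shuttle protein Ubqln2 (log2 change 0.29 ± 0.08, adjusted p = 0.0469). Ube3c was lower (log2 change -0.40 ± 0.08, adjusted p = 0.0117). The call of Adrm1 was lost when NTV 2, 5 or 6 or TL 4 or 7 was left out (highest adjusted p 0.0739). That of Ubqln2 was lost when any 1 NTV library, TV 3, 4 or 6, or TL 1, 4 or 7 was left out (up to 0.12).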

How the data were processed

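Expression was read from a table of FPKM values that the authors deposited for 54532 genes in 12 libraries, together with a gene length in bases that they also deposited. HISAT2 2.05, featureCounts 1.5.0-p3, DESeq2 and build mm10 are named, per the submitters' processing notes, without the role of each, and strand counting is not given in the sources used here. Multiplied by gene length, values of 100% of genes were whole multiples of 1 read's worth (tolerance 0.1 read), so reads were recovered for voom.

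The filter (mean FPKM at or above 0.5) left 12754 genes. Group means of log2(FPKM + 0.5) were fitted by limma 3.58.1 (R 4.3.3, trended prior variance), and calls were made at a Benjamini-Hochberg adjusted p under 0.05. The fit was also run on simulated data whose noise was drawn for each gene separately. That run held no effects shared within a library, and its outcome is not given here. Ratios of subunits were compared with exact permutation tests. Depth was 14939830 to 23580603 reads, and the 4 libraries per group limit the precision. The members and lists were chosen with earlier results of these data known. Values in every library are given for the 12 largest called changes, the cutting subunits, activators, inhibitor and core chaperones, and the 6 largest called changes among related genes in TV against NTV, except that some related genes are not reported here. Replicate numbers were not taken to pair mice. Alternatives changed the pseudocount, filter, scaling, fit and libraries. Promoters came from RefSeq (GRCm38.p6), and figures from Python 3.11.15 with matplotlib 3.10.9.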

Additional observations from a re-analysis of the deposited data

Results flagged for a closer look

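In 12 of 144 sets of 4 libraries (48 members in 3 groups), 1 library stood far from the other 3 by Dixon's criterion at the 95% level, where about 7.2 would be expected by chance. TV replicate 6 was low for Psma4 (43.1 FPKM, the others 54.3 to 56.3), Psmc4 (37.2, the others 46.7 to 48.2), Psmd13 (23.9, the others 26.95 to 27.07) and Psmd7 (70.8, the others 89.3 to 91.0). TL replicate 4 was high for the cap subunits Psmd2 (138 FPKM, the others 76.2 to 83.8) and Psmc5 (117, the others 85.8 to 90.4). The same library was low for Psmb8 (0.944 FPKM, the others 1.54 to 1.62) and Psme2 (4.16, the others 5.34 to 5.50).

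Single cases were Psmb10 in NTV replicate 2 (6.30 FPKM, the others 8.83 to 9.07), Psmb5 in NTV replicate 5 (35.3, the others 47.2 to 48.9) and Psmb9 in TV replicate 8 (0.512, the others 0.376 to 0.398). Psmc3ip, which is no proteasome gene, was high in TL replicate 5 (4.62 FPKM, the others 0.834 to 1.40).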

How the results depend on the processing

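Over 29 alternatives, 3 of them added after the data were seen (without the libraries with Ucp1 above 2 FPKM, without TL replicates 1 and 5, and only protein-coding genes), no called member changed sign. The 18 calls of TV against NTV ranged from 10 to 22 when each library was left out in turn, and were 14 under voom, 13 under an equal total and 22 with library weights. With the replicate number as a replicate block the count was 0, and each of the 18 calls ended. The numbers are not stated to pair mice, the compared groups share at most 2 of them, and deviations of same-numbered libraries correlated by 0.01 to 0.13. The count was 10 without the libraries with Ucp1 above 2 FPKM.

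For TL against TV the count was 1 with library weights and 0 to 3 when each library was left out. For TL against NTV it was 0 to 1 when each library was left out, 1 without the libraries with Ucp1 above 2 FPKM and 5 without TL replicates 1 and 5. The shares of all tested genes called were not computed for the alternatives. The median of all tested genes moved to 0.13 in TL against TV under voom, and to 0.14 in TL against NTV under an equal total. Relative to it, the median of the core and cap subunits was -0.12 and 0.18. Causes of these shifts were not tested. Depth limited Psmb9, with as few as 23 reads in a library.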

Other observations

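Rps27a, which encodes ubiquitin fused to a ribosomal protein, was at 69.9 and 73.8 FPKM in TL replicates 4 and 7 and at 21.3 and 23.5 in replicates 1 and 5. NTV libraries had 14.1 to 21.8 FPKM and TV libraries 25.0 to 42.8. The gene was named after its values were seen, and it was not called in any of the 3 comparisons.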
